A study of Mus musculus with 6 samples.

Results

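The genes that encode the proteins of the cytosolic ribosome were followed in the hippocampus of wild-type (WT) and transgenic (TG) mice. They were chosen by name: protein-coding rows of the deposited table called Rpl or Rps with a number, Rplp0 to Rplp2, or Rpsa, without the Rps6k kinases. The rule took 94 of 54532 rows. Of these, 43 encode proteins of the large subunit, 3 the stalk of the large subunit and 31 the small subunit, and 17 are paralogs, retrocopies annotated as coding, or genes that only carry such a name. A further 286 rows with ribosomal protein names were annotated as pseudogenes and were not members.

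RNA was sequenced in 3 libraries of WT mice and 3 libraries of TG mice. The library titles number the mice from 1 to 3 in each group, and the paper does not state how many mice went into each library. The TG mice carried the epilepsy-associated variants G82R and L85P in Slc1a2, the gene of the glial glutamate transporter GLT-1, placed in its exon by CRISPR/Cas9 on a C57BL/6N background, and the WT mice were littermates without them. The values were FPKM, fragments scaled to gene length and to library size, and the reads on genes numbered from 16081281 to 18751057 per library. A gene of 1 kb with 3 reads then had an FPKM of 0.160 to 0.190. Slc1a2 itself was at 202, 200 and 177 FPKM in the WT libraries and at 222, 207 and 217 in the TG libraries, a log2 difference of 0.16 (SE 0.09, limma adjusted p = 0.789). A level of mRNA does not show the variants, so this value does not check the genotype. All 10 markers of hippocampal neurons passed the filter on low values. The 18 choroid plexus markers summed to 1355 FPKM in TG1 and 4232 in TG2, against 84.8 to 118 in the other libraries, TG3 included.

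The ribosome translates messenger RNA into protein, with a small subunit that reads the message and a large subunit that forms the peptide bond. Most of its proteins are made in equal amounts. The mRNAs of its proteins commonly begin with a C followed by a run of pyrimidines, the 5′ terminal oligopyrimidine (TOP) motif. Through this motif mTOR signalling controls their translation. Because these mRNAs are short and abundant, the mouse genome holds many retrocopies of them.

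Windows of 30 bases around the annotated start sites are shown here for members that the results turn on, with the longest C-led pyrimidine run near the start in capitals. They were read from RefSeq (GRCm38.p6), on the strand of the gene, from 12 bases before the start to 17 after it.
Rps6 (chr4:86857350-86857379, minus strand): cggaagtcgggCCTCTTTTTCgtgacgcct
Rplp2 (chr7:141447639-141447668, plus strand): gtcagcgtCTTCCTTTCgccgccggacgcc
Rps27 (chr3:90213631-90213660, minus strand): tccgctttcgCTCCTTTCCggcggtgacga
Rps27rt (chr9:114982722-114982751, minus strand): acttatcccttgCTTTCCggcggtgacgac
Rpl22l1 (chr3:28805496-28805525, plus strand): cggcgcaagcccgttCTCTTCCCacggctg
Rps13 (chr7:116334173-116334202, minus strand): agcaaacgtCggtgagtggcgtcacttcct
Rps19bp1 (chr15:80264289-80264318, minus strand): ggcggaagtagCTCgccgcgtgtgggcggg
Rps6, Rplp2, Rps27 and Rpl22l1 had runs of 8 to 10 bases, Rps27rt had 6, and Rps13 and Rps19bp1 had 1 and 3.

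A promoter entry existed for 66 of the 94 members. A run of C and T that began with C, was at least 7 bases long and overlapped the stretch from 5 bases before to 10 after the start was found in 28 of 67 promoters of the subunit genes (41.8%). The share over all 32851 RefSeq promoters was 13.1%. It was 12% (9 of 75) for the mitochondrial ribosomal proteins, which serve a separate ribosome, and 35.7% (5 of 14) for translation factors known for TOP mRNAs. Only the strand of the gene was searched, and the match depends on where the start is annotated.

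The levels of the 77 subunit genes ranged from 1.25 to 945 FPKM, with a median of 81.7. Rplp1, a stalk protein that helps to recruit elongation factors, was the highest member with 1019, 893 and 1202 FPKM in the WT libraries against 752, 910 and 896 in the TG libraries. In the small subunit Rps15, near the decoding centre, had the highest level, with 423, 368 and 528 FPKM in WT and 349, 394 and 393 in TG. The highest in the large subunit was Rpl36, with 291, 260 and 365 FPKM in WT and 226, 269 and 285 in TG. For each of these genes WT3 was the highest library and TG1 the lowest, and the other TG libraries lay within the range of WT.

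Among the subunit genes, 3 had means under 10 FPKM: Rps10 at 1.25, Rpl24 at 2.03 and Rpl13a at 6.58. In the annotation, 20.6%, 47% and 35.4% of their exonic bases lay under another gene on the same strand (RPS10-NUDT3, Gm28037 and Gm45713), and how reads in such stretches were counted is not given in the sources used here. Rpl36al, a paralog of Rpl36a at 0.291 FPKM, shared 24.5% of its exonic bases with Gm49383. Their low values are therefore uncertain as levels. The length by which FPKM was divided was also longer than 1 mRNA, by a median of 2.02 times over the subunit genes and up to 6.81 times for Rpl35a, so levels of different members are comparable only per annotated gene length.

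The comparison of TG with WT asked whether the variants in the transporter went with a change in these transcripts. Ribosomal protein genes were lower in TG by a median of 0.20 on the log2 scale (median log2 difference -0.20, against -0.00 over all genes tested). Of the 89 members with a mean FPKM of at least 0.1, 83 had a difference below 0, while 50.4% of all 20952 genes tested did. No member passed limma with Benjamini-Hochberg adjustment (smallest adjusted p = 0.786), and 0.00955% of all genes did. At an unadjusted p under 0.05, 4 members were lower (2.78% of all genes) and 1 was higher (3.13% of all genes). In 2 members every TG library was below every WT library (5.71% of all genes), and in 0 members every TG library was above (6.35% of all genes). The median was -0.20 for the large subunit, -0.16 for the stalk and -0.20 for the small subunit.

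**Figure D1:**
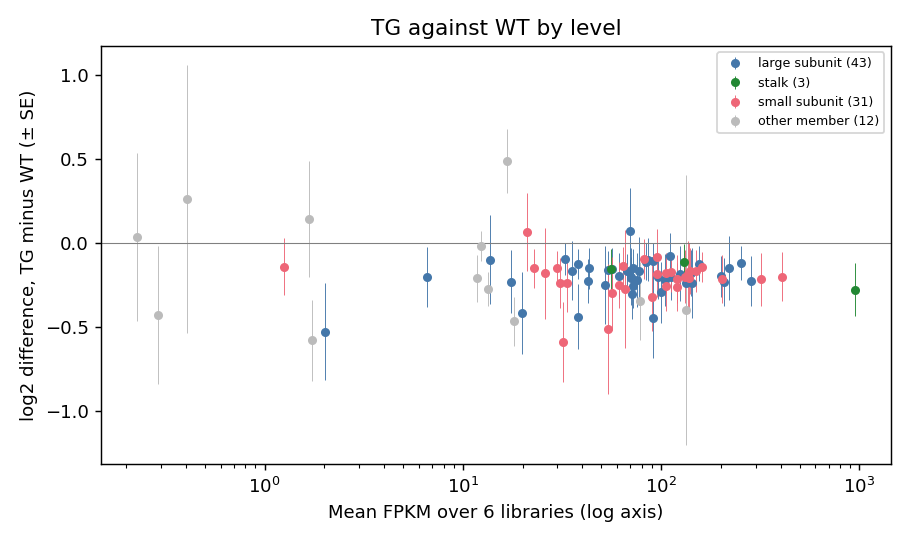
Log2 difference, TG minus WT, of the 89 members tested (vertical axis; bars are the standard error from limma) against their mean FPKM over 6 libraries (horizontal log axis), coloured by role. Of the 89 points, 83 lie below 0, and the largest errors belong to genes of low level and to Rps27rt.

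The members moved together from library to library, and this movement was larger than the difference between the groups. Relative to the WT mean, the median member was at -0.03, -0.19 and 0.22 on the log2 scale in the libraries WT1, WT2 and WT3, and at -0.40, -0.09 and -0.10 in TG1, TG2 and TG3. WT3 was the highest of the 6 libraries for 80 of 89 members, against 25.1% of all genes tested, and TG1 was the lowest for 69, against 19.1%. Both held for 67 members, against 8.55% of all genes. These libraries were singled out after the values were seen. TG2 and TG3 lay between WT1 and WT2 for the median member. Without WT3 the median difference was -0.08, without TG1 it was -0.09, and without both it was 0.01. Without WT2 it was -0.30, and 53 members then had all TG libraries below the remaining WT libraries, against 12.8% of all genes tested. In bulk tissue, fewer cells of a type and less RNA per cell cannot be told apart.

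**Figure D2:**
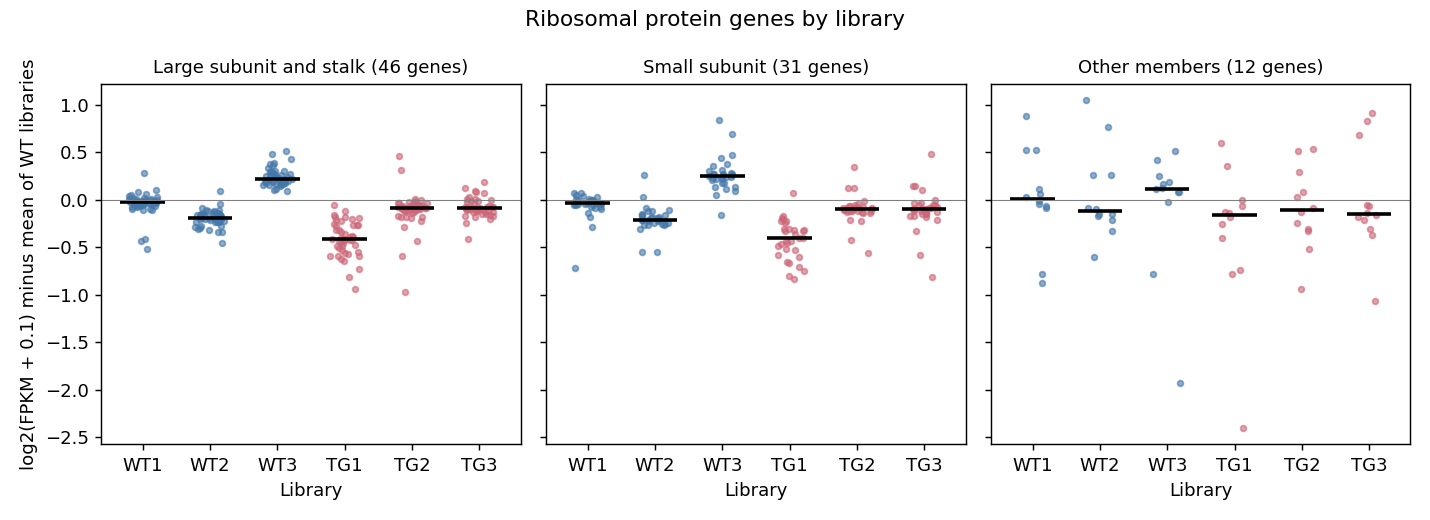
Each point is 1 gene in 1 library, as log2(FPKM + 0.1) minus the gene's mean over the WT libraries, for the large subunit with the stalk, the small subunit and the other members; black bars are medians, WT in blue and TG in red. In both subunits WT3 sits highest and TG1 lowest, and TG2 and TG3 lie within the range of WT.

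Members took 1.36%, 1.21% and 1.62% of the reads on genes in the WT libraries and 1.04%, 1.31% and 1.30% of those in the TG libraries. The group means were 1.40% ± 0.208 (SD, n = 3) in WT and 1.22% ± 0.153 (SD, n = 3) in TG, and the groups overlapped. The 95% Wilson interval was widest in WT3, from 1.62% to 1.63%, and it covers counting error only.

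Short genes outside the members had the same highest and lowest libraries. Ribosomal proteins outside the name rule and mitochondrial ribosomal proteins were not taken out of this set. Among other protein-coding genes with a mean of at least 10 FPKM, the 143 of up to 1000 bases were highest in WT3 (median 0.20) and lowest in TG1 (-0.29). Their medians were -0.04 for WT1, -0.16 for WT2, -0.11 for TG2 and -0.08 for TG3. The 1620 genes over 5000 bases went the other way, at -0.06 in WT3 and 0.12 in TG1. The annotated length of the members tested had a median of 1684 bases, against 4275 for other coding genes tested. The 15 members of up to 1000 bases with a mean of at least 10 FPKM were at 0.25 in WT3 and -0.47 in TG1. Longer members at that level had the same pattern. The 14 members of 3000 to 5000 bases were at 0.19 in WT3 and -0.28 in TG1, against 0.05 and 0.01 for the 1416 other genes of that length. The 2 members over 5000 bases were at 0.26 and -0.41. After a correction for gene length in each library the members were at 0.17 in WT3 and -0.26 in TG1, and their median difference was -0.14. That correction was fitted over all genes tested, so it need not remove the trend of the coding genes of higher level. With the choroid plexus score as a covariate the median difference was also -0.14. The 8 oligodendrocyte markers summed to 818, 776 and 653 FPKM in WT1, WT2 and WT3 and to 509, 701 and 753 in TG1, TG2 and TG3. Like the members they were lowest in TG1, but among the WT libraries they were lowest in WT3, where the members were highest. Their part in the result was not tested.

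**Figure D3:**
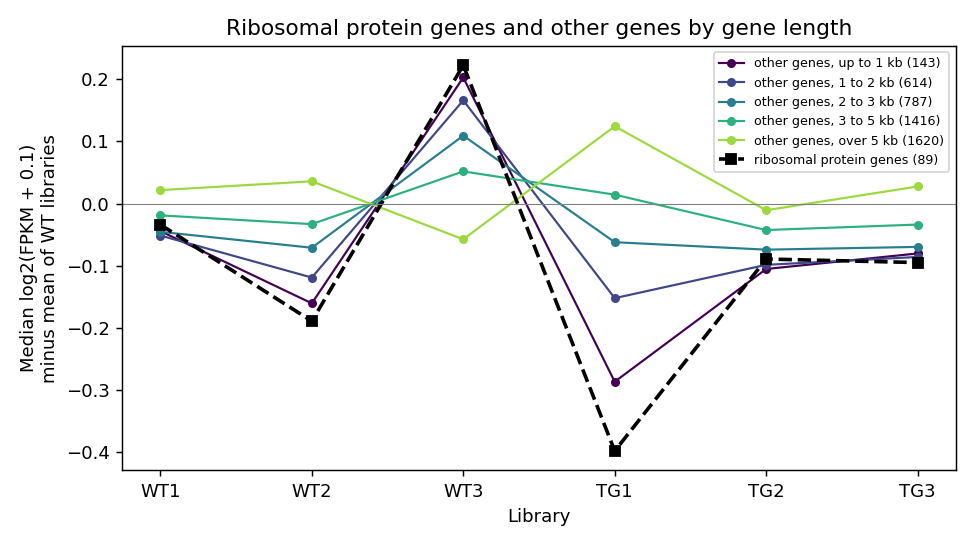
Median log2(FPKM + 0.1) minus the WT mean in each library for other protein-coding genes in 5 classes of annotated length (coloured, number of genes in brackets) and for the 89 ribosomal protein genes (black); lines only join the points of a set. In TG1 the classes run from -0.29 for genes up to 1 kb to 0.12 for genes over 5 kb, with the members at -0.40, and in WT3 from 0.20 to -0.06, with the members at 0.22.

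None of the subunit genes with well known roles passed the test, and in each of them the WT and TG libraries overlapped. Rps6, the substrate of S6 kinase, was at 155, 139 and 185 FPKM in WT and 126, 150 and 148 in TG (log2 difference -0.17, SE 0.13). Rps3, which also acts in DNA repair, had a difference of -0.14 (SE 0.11), and Rpsa, the laminin receptor precursor, one of -0.18 (SE 0.11). Rps19, mutated in Diamond-Blackfan anaemia, differed by -0.15 (SE 0.10). Rpl5 and Rpl11, which bind MDM2 when ribosome assembly is disturbed, differed by -0.16 (SE 0.12) and -0.21 (SE 0.13). Rpl10, Rpl22 and Rpl38 differed by -0.20, -0.13 and -0.24. The smallest limma adjusted p of these genes was 0.789. The stalk proteins Rplp0 and Rplp2 differed by -0.11 and -0.16.

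Rpl22l1, the paralog of Rpl22, was the member with the smallest p. It was at 21.3, 18.7 and 22.7 FPKM in WT and at 12.1, 16.8 and 16.9 in TG. Every TG library was below every WT library (log2 difference -0.47, SE 0.14, limma adjusted p = 0.786). Rps19bp1, which is no ribosomal protein but a binding partner of Rps19, was at 13.9, 13.7 and 16.3 FPKM in WT and 13.4, 11.6 and 11.2 in TG, again without overlap (log2 difference -0.27, SE 0.10). Rps13 was at 39.2, 25.5 and 51.9 FPKM in WT and 22.1, 27.8 and 24.9 in TG, where WT2 lay within the range of TG (log2 difference -0.59, SE 0.24). Rpl27-ps3, given with the paralogs, had the next smallest p among the lower members, followed by Rpl30. Rpl30 was at 44.9, 36.7 and 48.9 FPKM in WT and 24.6, 31.9 and 41.3 in TG, a difference of -0.44 with overlapping groups. After each library was centred on the median member, Rpl22l1 differed by -0.27, Rps13 by -0.39 and Rps19bp1 by -0.08.

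Several members departed from the common movement, and some of them have near-identical copies elsewhere in the genome. Sequence was compared in stretches of 50 bases, and the median subunit gene shared 48.4% of those of its mRNA with another annotated transcript. The mRNA of Rps27, a small subunit protein, and that of its retrocopy Rps27rt were identical over 341 aligned bases, with 0 mismatches, and the start-site windows above run into the same sequence. Rps27rt was at 67.0, 55.7 and 27.1 RPM (reads scaled to library size only) in the WT libraries and at 8.78 in TG1, 66.6 in TG2 and 74.97 in TG3. Rps27 was at 58.0, 48.5 and 127 RPM in WT and 74.6, 48.0 and 56.4 in TG. Rps27rt was thus lowest in WT3 and TG1, where Rps27 was highest. Their sum was 125, 104 and 154 in WT and 83.4, 115 and 131 in TG, with WT3 highest and TG1 lowest as for the other members. The log2 difference was -0.40 for Rps27rt, -0.27 for Rps27 and -0.23 for the sum.

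Copies also bear on the members with a positive difference. Of the 6 members above 0, 4 had at least 1 copy that held 50% or more of their 50-base stretches, and the summed reads of each of these families differed by less than 0. For 3 of the 4, nearly all reads of the sum belong to other genes of the family, so its sign is not theirs. Rpl9-ps6, a retrocopy of Rpl9 that differs from it by 1 substitution in 692 aligned bases (G336A, counted from the start of the Rpl9 mRNA), was at 14.8, 12.9 and 13.5 FPKM in WT and 20.8, 14.0 and 24.4 in TG. TG2 lay within the range of WT (log2 difference 0.49, SE 0.19, limma adjusted p = 0.786). It held 4.72% of the reads of its family, whose sum differed by -0.22. Rpl17 was at 80.5, 48.4 and 74.8 FPKM in WT and 51.7, 91.3 and 72.0 in TG, a difference of 0.07, held 26% of the reads of its family, and the sum differed by -0.18. Rpl10-ps3 and Rpl36a-ps1, both under 3 FPKM in every library, differed by 0.14 and 0.26. They held 0.641% and 0.310% of the reads of their families, whose sums differed by -0.20 and -0.16. Rps28, at 17.7, 16.7 and 27.2 FPKM in WT and 17.4, 18.9 and 28.1 in TG, and Rpl3l, the muscle form of Rpl3 at under 1 FPKM, had no such copy. Over the 51 members without a copy the median difference was -0.18.

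**Figure D4:**
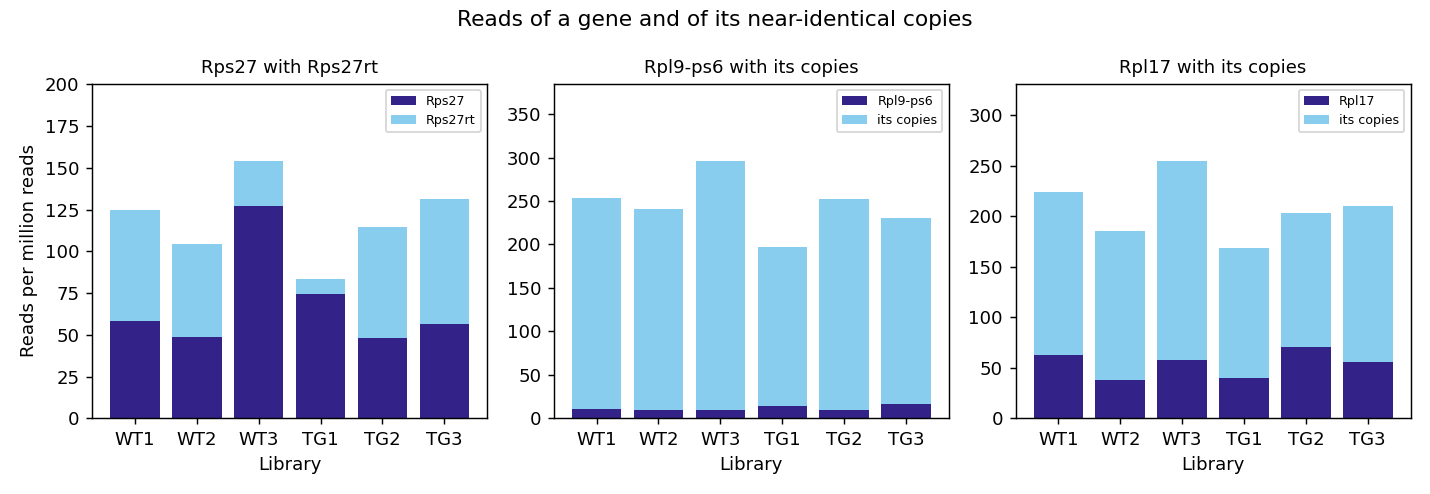
RPM in each library for Rps27, Rpl9-ps6 and Rpl17 (dark) stacked with the reads of their near-identical copies (light). The split between Rps27 and Rps27rt differs in WT3 and TG1 from the other libraries, while the full height is highest in WT3 and lowest in TG1 in all 3 families.

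Rps27a, which is made as a fusion with ubiquitin, varied most within groups among the well known members. It was at 36.0, 60.7 and 95.7 FPKM in WT and at 33.2, 64.6 and 33.7 in TG, and after the reads of its 1 copy were added the difference stayed at -0.48. The remaining paralogs were Rpl7l1 at 12.4 FPKM (log2 difference -0.02) and Rps27l, induced by p53, at 11.8 FPKM (-0.21). Rps12-ps3, whose 50-base stretches all occur in Rps12 as well, was at 78.7 FPKM (-0.35). It held 41.7% of the reads of its family, whose sum differed by -0.24. Rpl27-ps3 was at 2.05, 1.82 and 2.36 FPKM in WT and 1.86, 1.41 and 0.933 in TG (-0.58), and its family sum differed by -0.21. Of the members, 5 were not tested. Rpl9-ps1, Rpl10l and Rpl36-ps4 were listed at 0 in all libraries, Rpl13a-ps1 had reads only in TG2 and Rpl39l only in TG1 and TG2, all under 0.1 FPKM.

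A feature that the name rule did not use was the small nucleolar RNAs inside the genes, which guide the modification of ribosomal RNA. Of the 89 members tested, 30 (33.7%) held one in the annotation, against 220 of 15017 other coding genes tested (1.47%).

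Other genes of the pathway had median differences nearer to 0 than the members. Fau and Rack1, ribosomal proteins outside the name rule, had log2 differences of -0.15 (SE 0.13) and -0.11 (SE 0.09). Of 77 mitochondrial ribosomal protein genes tested, 7 were lower (2.78% of all genes) and 0 higher (3.13% of all genes) at an unadjusted limma p under 0.05. Their median was -0.15, and Mrps31 had the smallest p (-0.32, SE 0.09). In 8 of them every TG library was below every WT library (5.71% of all genes). Of 19 translation factors of the TOP class, 1 was lower (Btf3, -0.30) and 0 were higher at that p, with a median of -0.14. In 17 of them the difference was below 0 (50.4% of all genes), and in 2 every TG library was below every WT library (5.71% of all genes). The library pattern of the members was also seen in both lists. Relative to the WT mean, the mitochondrial list had medians of 0.18 in WT3, its highest, and -0.23 in TG1, its lowest. For the TOP class these were 0.18 and -0.21. For 29 ribosome assembly factors the median was -0.08, with 24 below 0. At that p 1 of them was lower (Nop10, -0.28; 2.78% of all genes) and 0 were higher. In 5 every TG library was below every WT library (5.71% of all genes). For 11 genes of RNA polymerase I the median was -0.02, with 6 below 0, and 1 was lower at that p (Taf1b, -0.29) and 0 higher. Of these genes, 4 had every TG library below WT (5.71% of all genes) and 1 had every TG library above (6.35% of all genes). The 18 genes of mTOR and TOP control had a median of 0.08, with 12 above 0. At that p 1 was higher (3.13% of all genes) and 0 were lower. It was Eif4ebp2, a repressor of cap-dependent translation (0.18, SE 0.07). Every TG library was above WT in 2 of the 18 (6.35% of all genes) and below WT in 1 (5.71% of all genes). No gene of these lists passed the adjustment over all genes (smallest limma adjusted p = 0.786).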

How the data were processed

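Hippocampal RNA of WT and TG mice was measured by RNA-seq in 3 WT and 3 TG libraries. The authors counted reads per gene with HTSeq and deposited FPKM, with 1 column per library. The methods name Trizol and NEBNext kits and the labels RNeasy and SMARTer kits. The aligner is not given in the sources used here, and the labels name GRCm38. Of the gene identifiers, 54409 were found in GENCODE M21. Reads were recovered from the FPKM steps, whole for 100% of values (tolerance 0.05). The sources do not state strand or the handling of reads that match several genes.

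Genes whose mean reached 0.1 FPKM entered a fit by limma 3.58.1 (R 4.3.3) on log2(FPKM + 0.1), with a variance trend, 3 against 3 libraries, and p-values adjusted over 20952 genes. The fit was also run on simulated data in which genes varied independently. The members here moved together, so that run does not bear on them. An exact test of 3 against 3 cannot go below 0.1. Family sums added the genes that held at least 50% of a member's 50-base stretches.

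The members and lists were chosen with earlier results of these data known. Named genes were the 3 most abundant per subunit, the stalk, the 5 smallest p in each direction, all members outside the subunit lists, 10 well known members, those not tested, and the smallest p of each other list. Alternatives changed the pseudocount, filter, scaling, variance model, length correction, covariate, block and libraries. Centring on the members, leaving out WT3 with TG1, and family sums were chosen after seeing the data.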

Additional observations from a re-analysis of the deposited data

How the results depend on the processing

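No member passed the adjusted threshold under any alternative run. The pairing was not borne out (same-numbered libraries correlated at 0.0125, 0.0434 and 0.00314), and with the replicate block 1 member was higher and 6 lower at an unadjusted p under 0.05, with a median of -0.20. Without a variance trend 0 were higher and 1 lower, with limma-voom on recovered reads 8 were lower, with the length correction 2, and with the choroid plexus covariate 1. Leaving out each library in turn gave 0 to 1 members higher, 0 to 8 lower at that p, 0 to 1 with all TG libraries above WT, 2 to 53 with all below (the highest without WT2) and a median of -0.30 to -0.08 (nearest 0 without WT3 and lowest without WT2). Centred on the members' median, the median was -0.01, 1 member was lower at that p, and 1 had all TG libraries above WT. Without WT3 and TG1 the median reversed to 0.01, with 0 higher and 2 lower at that p and 5 higher and 4 lower without overlap.

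Among single genes, a pseudocount of 1 turned Rpl36a-ps1 to -0.02 and Rpl3l to -0.01, TPM scaling turned Rpl7l1 to 0.02, and the choroid plexus covariate turned Rpl10-ps3 to -0.06, Rpl17 to -0.08, Rpl3l to -0.21 and Rpl38 to 0.00. Centring turned Rpl4 and Rpl22 to 0.07, Rpl41 and Rplp2 to 0.04, Rplp0 to 0.08, Rpl7l1 to 0.18, Rps6 and Rpl5 to 0.03, Rps3 to 0.06, Rps19 to 0.05 and Rpsa to 0.02. Without WT3 and TG1, Rpl36, Rps27l, Rps3 and Rpl5 were at 0.01, Rps6 at 0.02, Rps3a1, Rplp0, Rplp2 and Rpl10 at 0.03, Rpl7l1 at 0.05, Rps12-ps3 at 0.06, Rpl38 at 0.11, Rpl41 at 0.17, Rps27rt at 0.21, Rps19 at 0.00 and Rpl36a-ps1 at -0.58. Summed with their copies, Rpl9-ps6 was at -0.22, Rpl10-ps3 at -0.20, Rpl36a-ps1 at -0.16 and Rpl17 at -0.18. The cause of these changes was not tested. With 1 library left out, the genes that changed sign ranged as follows: Rpl41 -0.30 to 0.04, Rpl10-ps3 -0.25 to 0.40, Rpl36a-ps1 -0.71 to 0.79, Rpl17 -0.15 to 0.29, Rps28 -0.15 to 0.28, Rps27rt -0.94 to 0.60, Rpl7l1 -0.09 to 0.03, Rpl3l -0.40 to 0.41.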
